A study of Rattus norvegicus with 8 samples.

Results

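The striated muscle miRNAs, often called myomiRs, were followed across 8 microarrays of rat synovial tissue, the soft lining of the joint. They were chosen by name: miR-1-3p, miR-1b, miR-133a-3p, miR-133a-5p, miR-133b-3p, miR-206-3p, miR-208b-3p and miR-499-5p. These make 8 of the 758 rat miRNAs on the array. The names were picked with earlier results of these arrays in view, where this family took a very different share of the signal from array to array, so the spread of its members between arrays is given here as a description without a test. The tested animals were Sprague-Dawley rats whose left knee had an anterior cruciate ligament transection (ACLT), a surgical model of osteoarthritis in which the ligament is cut through (4 arrays). The sham rats had the ligament laid open but left whole (4 arrays). Both groups thus went through opening of the joint, and the synovium was taken from the side of the knee away from the skin cut. The labels give the time of sampling in 3 ways, as 14 days in the series title, 2 weeks in the protocol and 7 days in the design text. They state 50 ng of total RNA per labelling, but neither the age of the animals nor whether each array stands for a separate animal, so the p-values below measure the spread between arrays, which may be technical.

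Striated muscle miRNAs are made in skeletal muscle fibres and heart muscle cells, where they act on growth, fibre type and differentiation. miR-1 and miR-133 come from shared transcripts that are switched on as muscle cells mature, and the related miR-206 and miR-133b come from another shared transcript of skeletal muscle. miR-208b and miR-499 lie inside myosin heavy chain genes of heart and slow skeletal fibres. Synovium itself is built of fibroblast-like cells, macrophages, vessels and fat, and striated muscle lies outside the joint capsule.

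The mature sequences are shown because they sort the 8 members by 5 distinct seeds and show how little separates some of the probes' targets. All 8 were found in RefSeq by name. Each is printed 5′ to 3′ with its seed, bases 2 to 8, in capitals, and coordinates are those of the mature strand in assembly GRCr8. The first group has the miR-1 and miR-206 seed, with miR-1-3p at chr18:2160339-2160360 on the minus strand, miR-1b at chr3:187864736-187864757 on the plus strand and miR-206-3p at chr9:30590747-30590768 on the plus strand.
rno-miR-1-3p: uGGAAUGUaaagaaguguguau
rno-miR-1b: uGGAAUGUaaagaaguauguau
rno-miR-206-3p: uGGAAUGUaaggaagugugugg
The second group is made of the miR-133 3p arms, with miR-133a-3p at chr18:2157886-2157907 on the minus strand and miR-133b-3p at chr9:30594629-30594650 on the plus strand.
rno-miR-133a-3p: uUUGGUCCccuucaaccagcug
rno-miR-133b-3p: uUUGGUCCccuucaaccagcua
The opposite arm of the miR-133a hairpin, miR-133a-5p at chr18:2157923-2157944 on the minus strand, has a seed of its own.
rno-miR-133a-5p: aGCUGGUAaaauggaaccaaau
The myosin gene miRNAs are miR-208b-3p at chr15:32421648-32421665 on the minus strand and miR-499-5p at chr3:164570616-164570636 on the plus strand, and their seeds differ from each other at base 8 only.
rno-miR-208b-3p: aUAAGACGaacaaaaggu
rno-miR-499-5p: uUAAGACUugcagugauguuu

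Counted from 1 at the 5′ end, miR-1b differs from miR-1-3p by the single substitution G17A. miR-206-3p differs from miR-1-3p by A11G, A21G and U22G, and miR-133b-3p differs from miR-133a-3p by G22A alone. How far a probe for one of these also captures its near copy was not tested, so values of miR-1-3p and miR-1b, and of miR-133a-3p and miR-133b-3p, cannot be fully told apart. In the same annotation, the Mir1 and Mir133a1 hairpins lie 2368 bases apart on the minus strand of chromosome 18, within the gene Mib1. The Mir206 and Mir133b hairpins lie 3801 bases apart on the plus strand of chromosome 9, within a long noncoding RNA gene. Mir208b overlaps Myh7 and Mir499a overlaps Myh7b, both genes of myosin heavy chains.

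The arrays differed in brightness, and this touches every value that follows. Taking the 136 probes that stood well above background on every array, the 75th percentile of their signal was 797, 1097, 353 and 305 intensity units on ACLT arrays 1 to 4, and 289, 317, 353 and 1185 on sham arrays 1 to 4. ACLT 1, ACLT 2 and sham 4 were thus the bright arrays, and they also carried the strongest labelling spike-in signals, 1271, 834 and 1025, against 365 to 518 on the other arrays. The scanner software detected 120 to 169 miRNAs on ACLT arrays and 111 to 184 on sham arrays. No spot was saturated. Of marker miRNAs, 4 of 4 for mesenchymal and fibroblast cells were detected on all arrays, while 0 of 7 epithelial and 0 of 3 neural ones were detected on any. The arrays hold miRNA probes only, so muscle messenger RNAs were not measured.

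The striated muscle miRNAs took very unequal parts of the signal. Summed over the members, they made up 8.63%, 0.186%, 20.5% and 23.6% of the summed miRNA signal on ACLT arrays 1 to 4, against 4.22%, 2.10%, 11.3% and 4.07% on sham arrays 1 to 4. The share was lowest on ACLT 2 and highest on ACLT 3 and ACLT 4, so both ends of the range lay in the ACLT group and the groups overlapped. The mean share was 13.2% ± 10.8 in ACLT tissue and 5.43% ± 4.06 in sham tissue (SD, n = 4 each). These are shares of fluorescence, not of molecules, because each probe has its own response. In tissue measured in bulk, fewer cells of a type and less RNA per cell cannot be told apart.

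**Figure D1:**
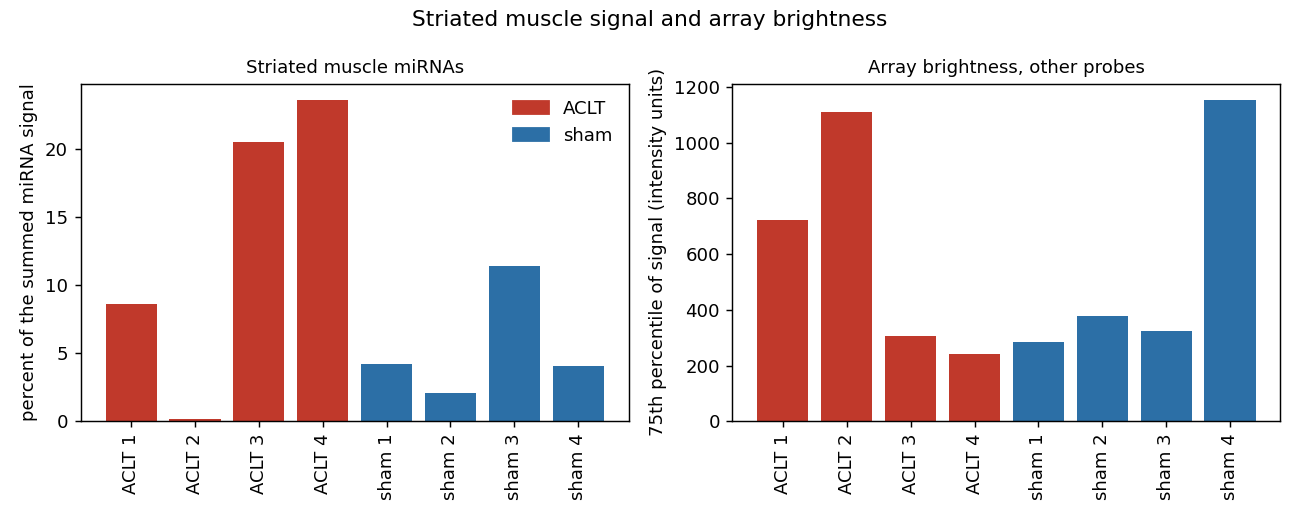
The left bars give the striated muscle miRNAs' percent of the summed miRNA signal on each array, ACLT in red and sham in blue. The right bars give each array's 75th percentile of signal over probes other than those of striated muscle miRNAs, in intensity units. ACLT 2 has the lowest share, 0.186%, on one of the bright arrays, while ACLT 4 has the highest, 23.6%, on the dimmest.

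Of the 8 members, miR-1-3p, miR-1b, miR-133a-5p, miR-133b-3p and miR-206-3p were detected on all 8 arrays. miR-133a-3p was detected on 3 ACLT and 2 sham arrays, miR-499-5p on 3 ACLT arrays and 1 sham array, and miR-208b-3p on none. Levels below are log2 of a miRNA's brightest probe over the array's 75th percentile, raised to a floor of -4.48 where they fell under it. The floor is the median, over arrays, of the dimmest signal still well above background. Levels are compared between arrays for the same miRNA only, since probes of different miRNAs respond differently.

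miR-1-3p, the best known muscle miRNA and a brake on growth that favours differentiation, had log2 levels of 0.62, -4.48, 1.57 and 2.05 on ACLT arrays 1 to 4, against -0.88, -1.65, 0.59 and -0.50 on sham arrays 1 to 4. The values of ACLT 1, 3 and 4 lay above all 4 sham values, and ACLT 2 lay below them all. Before scaling, its probe read 1229, 30.7, 1050 and 1266 intensity units on the ACLT arrays, against 157.5, 101.3, 532 and 835 on the sham arrays. ACLT 2, a bright array by its other probes, was therefore the dimmest for miR-1-3p even with no scaling.

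miR-1b, its near copy from another chromosome, had log2 levels of 1.71, -3.86, 2.68 and 2.87 on ACLT arrays 1 to 4, against 0.10, -0.67, 1.46 and 0.71 on sham arrays 1 to 4. The order was that of miR-1-3p, with ACLT 1, 3 and 4 above every sham array and ACLT 2 below. The range did not hang on a single spot, since 6 to 8 spots of the probe were used on each array and their coefficient of variation was between 1.77% and 17.2%.

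miR-206-3p, which is found in skeletal muscle and not heart and is known to rise when fibres regenerate, had log2 levels of -0.11, -4.48, 2.00 and 2.24 on ACLT arrays 1 to 4, against 0.11, -1.03, 0.88 and -1.41 on sham arrays 1 to 4. Here ACLT 3 and ACLT 4 lay above all sham arrays, ACLT 1 fell between them, and ACLT 2 lay below. The probe read 740, 37.5, 1407 and 1438 intensity units on the ACLT arrays, against 311, 155, 651 and 446 on the sham arrays.

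miR-133b-3p, the partner of miR-206 and a regulator of muscle cell proliferation, had log2 levels of 1.23, -4.44, 2.61 and 2.74 on ACLT arrays 1 to 4, against -0.0063, -0.82, 1.39 and 0.06 on sham arrays 1 to 4. ACLT 3 and ACLT 4 were above all sham arrays and ACLT 2 was below them. miR-133a-3p, from the miR-1 transcript, was dim, with its probe reading 47.2, -0.47, 109 and 88.9 intensity units on ACLT arrays and 11.4, 5.94, 56.7 and 27.7 on sham arrays. It was not well above background on ACLT 2, sham 1 and sham 2, which are also the 3 arrays on which miR-1-3p was lowest.

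miR-133a-5p, the other arm of that hairpin, had log2 levels of -2.61, -4.48, -1.52 and -1.03 on ACLT arrays 1 to 4, against -3.57, -4.17, -2.66 and -3.40 on sham arrays 1 to 4. ACLT 1, 3 and 4 lay above all sham arrays, and ACLT 2 was at the floor and not well above background. miR-499-5p, which lies in the slow myosin gene Myh7b, was close to background throughout, at 18.7, 4.31, 20.5 and 15.8 intensity units on ACLT arrays and 3.04, 3.38, 8.18 and 14.8 on sham arrays. miR-208b-3p, from the slow and fetal cardiac myosin gene Myh7, gave -6.58 to -3.28 intensity units over all arrays, so these arrays give no level for it.

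Of the other arms and paralogs of these genes, 8 were on the array and 0 were detected on any array. They include miR-133c, miR-208a-3p and the opposite arms of miR-1, miR-133b, miR-206, miR-208b and miR-499.

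The width of these ranges was in view when the family was picked. The highest array exceeded the lowest by 146-fold for miR-133b-3p and 106-fold for miR-1b. Levels of the other 3 tested members on ACLT 2 were raised to the floor, which makes each of their ranges a minimum, at least 105-fold for miR-206-3p, 92.3-fold for miR-1-3p and 10.9-fold for miR-133a-5p. With no floor, miR-206-3p spanned 138-fold and miR-1-3p 148-fold, both being well above background on ACLT 2, so these 4 members have no settled order. A miRNA was tested if 1 group or both had it detected on all 4 of their arrays, and of these 113 miRNAs 6.19% had a range of 8-fold or more. These were 5 of 5 tested members and 2 of the other 108, namely miR-1224 at 12.7-fold and miR-494-3p at 10.2-fold. The median range of the other miRNAs was 1.65-fold, and the next widest were miR-3473 at 6.99-fold, miR-378b at 6.88-fold and miR-6216 at 5.44-fold. Some of the other miRNAs also lay at the floor, such as miR-300-3p and miR-872-5p on all 8 arrays. Their ranges are lower bounds, and so are the median and the count of 2. All 5 tested members were lowest on ACLT 2 and highest on ACLT 4, while of the other 108 miRNAs 2 had that pair of extremes. miR-1224 and miR-494-3p instead had their lowest level on sham 4, a bright array, and their highest on sham 3. Without scaling, the members' ranges were 41.2-fold for miR-1-3p, 34.5-fold for miR-1b, 42.8-fold for miR-133b-3p and 38.4-fold for miR-206-3p, and at least 9.18-fold for miR-133a-5p. A large part of the range came from 1 array: without ACLT 2 the scaled ranges were 8.83-fold to 13.0-fold.

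**Figure D2:**
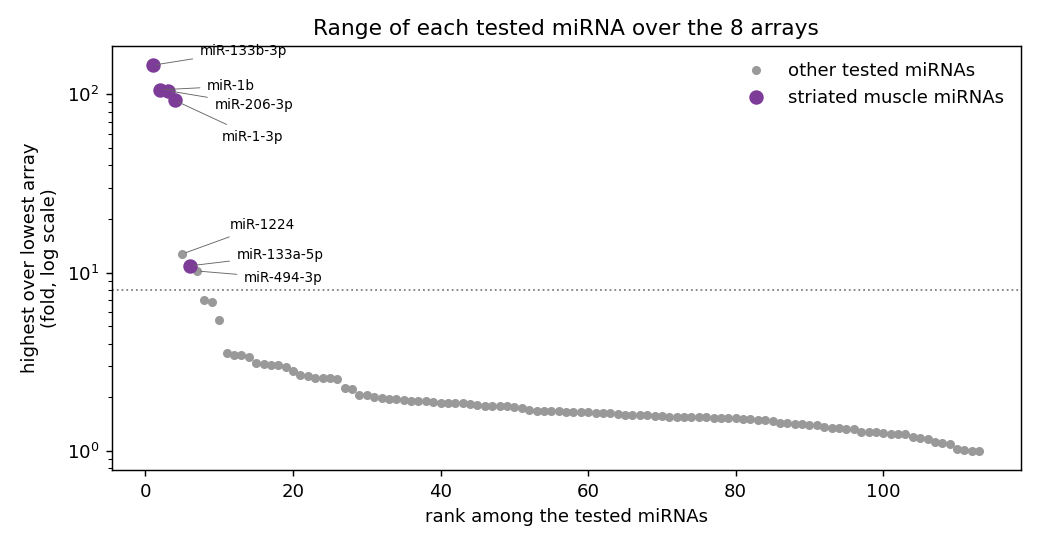
Each point is 1 of 113 tested miRNAs, placed by rank and by its highest over its lowest array on a log axis, with the striated muscle members in purple. The dotted line marks 8-fold. miR-133b-3p and miR-1b stand at 146-fold and 106-fold, miR-206-3p and miR-1-3p are drawn at their lower bounds of 105-fold and 92.3-fold, and miR-133a-5p lies beside miR-1224 and miR-494-3p. Other points with a level at the floor, that of miR-133a-5p among them, are lower bounds too.

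While the levels moved widely, miR-1b, miR-133b-3p and miR-133a-5p kept close proportions to miR-1-3p within an array. The ratio of miR-1b to miR-1-3p had an SD of 0.17 on the log2 scale over 8 arrays and spanned 1.40-fold, while miR-1b itself spanned 106-fold. The ratio of miR-133b-3p to miR-1-3p had an SD of 0.15 and spanned 1.39-fold, and the 2 hairpins lie on different chromosomes. However, miR-1b is a near copy of miR-1-3p, and miR-133b-3p is a near copy of miR-133a-3p, which is a cluster partner of miR-1-3p. The part that capture of near copies has in these ratios was not tested. The ratio of miR-133a-5p to miR-1-3p, which are cluster partners, had an SD of 0.28 over the 7 arrays that measured both. Among 76 other miRNAs above the floor on all arrays, the median SD of such a ratio over 2850 pairs was 0.38. A member against one of those 76 had a median SD of 2.23. Over the 10 pairs of tested members, Pearson's r across arrays was 0.877 to 0.997 and Spearman's rho 0.833 to 1.0. These are descriptions over 8 arrays that share 1 slide, in which ACLT 2 lies far from the rest.

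miR-206-3p and miR-133a-3p departed from these proportions. The log2 ratio of miR-206-3p had an SD of 0.65 to miR-1-3p and 0.54 to miR-133b-3p. For the ratios of miR-133a-3p, over 5 arrays, the SD was 0.64 to 0.86. All of these lie above the median of 0.38 for pairs of other miRNAs. Relative to its median over arrays, the log2 ratio of miR-206-3p to miR-1-3p was -1.02, -0.0023, 0.13 and -0.11 on ACLT arrays 1 to 4, against 0.69, 0.33, 0.0023 and -1.19 on sham arrays 1 to 4. ACLT 1 and sham 4 were low and sham 1 was high, so the spread, 3.70-fold in all, ran within the groups and they overlapped. Against its own cluster partner miR-133b-3p, miR-206-3p spanned 3.00-fold with the same 3 arrays at the ends. The log2 ratio of miR-133a-3p to miR-133b-3p, relative to its median, was -0.79, 0.22 and 0.00 on ACLT 1, 3 and 4, against 0.49 and -0.96 on sham 3 and 4, the arrays that measured it. It too was low on ACLT 1 and sham 4. Those are the arrays with the strongest labelling spike-in signals, 1271 and 1025, and the part of labelling in these ratios was not tested. ACLT 2, with the next strongest at 834, was near the median for miR-206-3p over miR-1-3p.

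**Figure D3:**
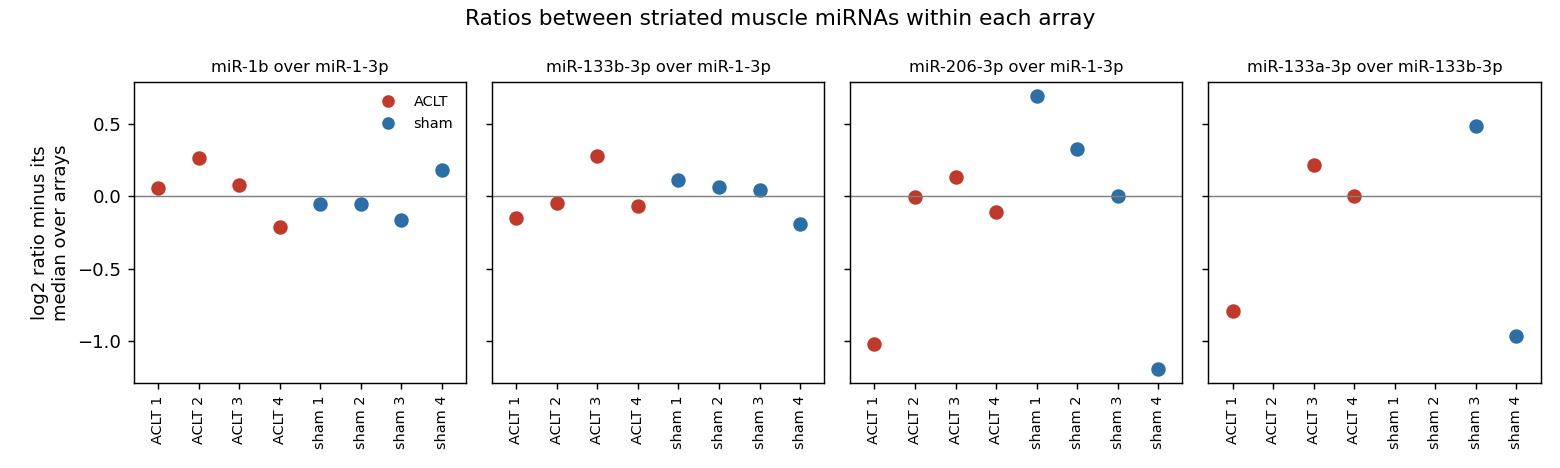
Each panel gives the log2 ratio of 2 members on each array minus its median over arrays, ACLT in red and sham in blue, for arrays on which both were well above background. miR-1b and miR-133b-3p stay within 0.28 of the median against miR-1-3p. On ACLT 1 and sham 4 the ratios of miR-206-3p and of miR-133a-3p lie 0.79 or more below their medians.

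The study's question was how miRNAs of synovium differ after ligament transection, and for the striated muscle miRNAs no difference was called. With limma and Benjamini-Hochberg adjustment over 113 miRNAs, 0% of them had an adjusted p under 0.05, and 0 of 5 members did. At an unadjusted p of 0.05, 8 of 113 passed, none of them a member. The groups did not separate for any member, nor for any tested miRNA (0%). miR-133a-5p averaged -2.41 ± 1.53 in ACLT tissue and -3.45 ± 0.62 in sham tissue (log2, SD, n = 4 each), a difference of 1.04 (SE 0.77, 95% interval -0.77 to 2.85, limma adjusted p = 0.832). Its level on ACLT 2 was raised to the floor, and the difference depends on where the floor is set. With the floor lowered it was 0.54 (SE 1.11), and with the floor raised 0.60 (SE 0.35). miR-1-3p averaged -0.06 ± 3.01 in ACLT tissue and -0.61 ± 0.93 in sham tissue, a difference of 0.55 (SE 1.46, 95% interval -2.89 to 4.00, limma adjusted p = 0.964). Its level on ACLT 2 was raised to the floor from -5.16, which raises the difference. With the floor lowered it was 0.38 (SE 1.51), and with the floor raised 1.05 (SE 1.09).

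The other tested members gave the same picture. The log2 differences were 0.45 for miR-1b, 0.38 for miR-133b-3p and 0.27 for miR-206-3p, with SE of 1.53, 1.63 and 1.52 and a limma adjusted p of 0.964 for each. Their intervals ran from -3.17 to 4.07, from -3.47 to 4.22 and from -3.32 to 3.87, so they hold changes of several-fold in either direction. With the floor lowered, miR-1b and miR-133b-3p stayed at 0.45 and 0.38, while miR-206-3p, floored on ACLT 2, fell to 0.18. With the floor raised, the differences of miR-1b, miR-133b-3p and miR-206-3p were 0.80, 0.87 and 0.77. The 5 tested members had a median difference of 0.45, against -0.07 over all tested miRNAs. A difference above 0 was seen for 5 of 5 members and for 33.6% of all tested miRNAs, though with scaling to the labelling spike-ins miR-206-3p was at -0.016. The members move together from array to array and do not count as 5 separate observations. When miRNAs detected on at least 1 array were tested, 199 in all, miR-133a-3p differed by 1.01 (SE 0.85) and miR-499-5p by 0.14 (SE 0.09), both with a limma adjusted p of 1. The second probe of miR-1-3p, miR-1b, miR-133a-5p, miR-133b-3p and miR-206-3p gave differences of 0.86, 1.13, 0.73, 0.95 and 0.47. On ACLT 2 these probes lay at log2 -6.23, -7.92, -7.15, -7.41 and -5.69 and were raised to the floor of -4.48. The differences of miR-1-3p, miR-1b, miR-133b-3p and miR-206-3p are therefore upper bounds. For miR-133a-5p the second probe was at the floor on sham 1, sham 2 and sham 4 as well.

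Single arrays decided the size of these differences. With the floor as set, they also decided the sign for all tested members but miR-133a-5p. The SD in the ACLT group, 1.53 to 3.39 for the tested members, was larger than the 0.62 to 1.05 in the sham group, and ACLT 2 was the array that lay apart. Without ACLT 2, the log2 differences were 2.03 for miR-1-3p, 2.02 for miR-1b, 1.73 for miR-133a-5p, 2.04 for miR-133b-3p and 1.74 for miR-206-3p, with a lowest limma adjusted p of 0.444. Without ACLT 4 the same 5 differences were -0.15, -0.22, 0.58, -0.36 and -0.50, and without ACLT 3 they were 0.01, -0.16, 0.74, -0.31 and -0.42. In both, the ACLT 2 levels of miR-1-3p, miR-133a-5p and miR-206-3p were raised to the floor, so their differences are upper bounds. For miR-133a-5p that level was raised from -6.60 and not well above background, so whether its sign holds is not settled. No member passed the threshold in any of these fits.

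The slide held the arrays in 2 rows, so that ACLT 1, ACLT 2, sham 1 and sham 2 lay in row 1 and the other 4 arrays in row 2. Within row 1 the log2 difference was -0.66 for miR-1-3p, -0.79 for miR-1b, 0.33 for miR-133a-5p, -1.19 for miR-133b-3p and -1.83 for miR-206-3p. Within row 2 it was 1.77, 1.69, 1.76, 1.95 and 2.38 for the same miRNAs. The 2 rows thus went opposite ways for all tested members but miR-133a-5p, each row resting on 2 arrays a group, and row 1 holding ACLT 2. The level of miR-133a-5p on ACLT 2 was raised to the floor from -6.60. Its row 1 difference of 0.33 is therefore an upper bound, and its sign there is not settled. No member passed an adjusted p of 0.05 in either row.

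**Figure D4:**
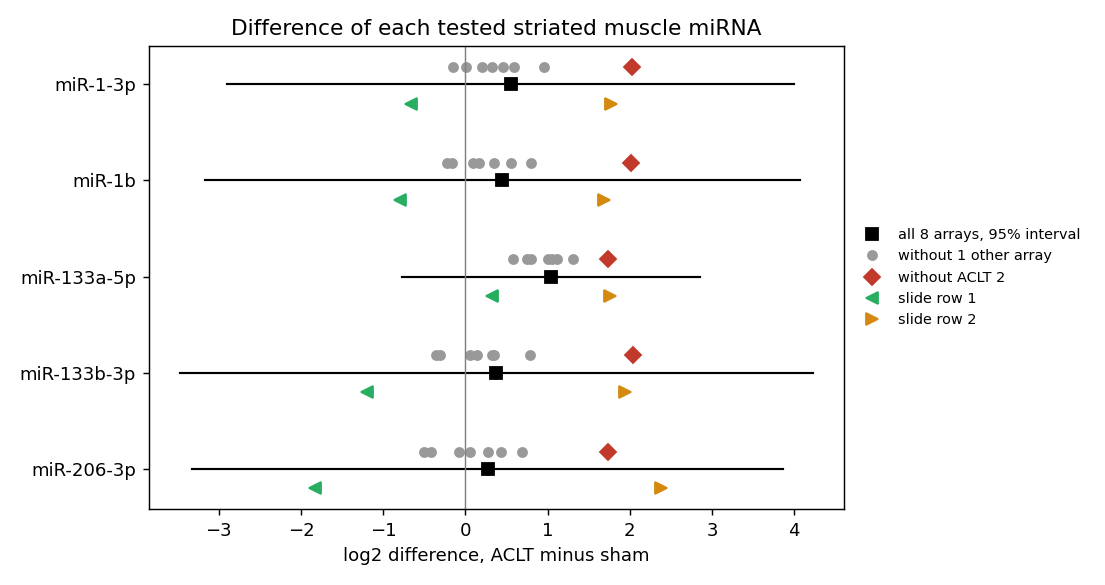
For each tested member, the black square and line give the log2 difference, ACLT minus sham, over all 8 arrays with its 95% interval. Grey points leave out 1 array other than ACLT 2, red diamonds leave out ACLT 2, and triangles give slide row 1 (green) and row 2 (orange). Every interval crosses 0, the red diamonds lie at 1.73 to 2.04, and the rows lie on opposite sides of 0 for miR-1-3p, miR-1b, miR-133b-3p and miR-206-3p.

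By Pearson correlation over the 8 arrays with the mean log2 level of the 5 tested members, the most similar of 106 other miRNAs were miR-378b (r = 0.80, rho = 0.83), miR-30a-5p (r = 0.74, rho = 0.79), miR-30c-5p (r = 0.68, rho = 0.71), miR-30e-5p (r = 0.67, rho = 0.64) and miR-486 (r = 0.65, rho = 0.72). Without ACLT 2 the 5 values of r were 0.73, 0.64, 0.49, 0.68 and 0.67. The scaling includes probes of the members, and with those left out of the percentile the same 5 had r of 0.84, 0.83, 0.79, 0.80 and 0.72. The first 4 then stayed among the 5 highest, joined by miR-196a-5p (r = 0.83), while miR-486 took place 12. The scaling also sets how many miRNAs ran with or against the members: 11 of 106 had r over 0.5 and 33 had r under -0.5, against 30 and 3 with the members' probes left out. miR-378b had log2 levels of -3.45, -4.14, -1.61 and -1.36 on ACLT arrays 1 to 4, against -2.77, -2.75, -2.08 and -3.97 on sham arrays 1 to 4. Its 3 lowest arrays were the 3 bright ones, ACLT 1, ACLT 2 and sham 4, so it also ran with brightness, whereas miR-1-3p, miR-1b and miR-133a-5p on ACLT 1 were above all sham arrays. Its whole range was 6.88-fold, far below that of the leading members. The same 3 bright arrays were lowest for miR-30a-5p, at -3.09 (ACLT 1), -3.29 (ACLT 2) and -2.96 (sham 4). They were also lowest for miR-30c-5p, at -3.82, -3.99 and -3.74, so both ran with brightness as well. miR-30e-5p was lowest on ACLT 1, ACLT 2 and sham 1. miR-486, which is abundant in both red cells and muscle, was at the floor on ACLT 1, ACLT 2, sham 1 and sham 4. Its likeness is thus largely a contrast between those arrays and the other 4.

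Other miRNAs known from muscle, a list of 24 that many tissues also express, had a narrow range in sum. On the array were 23, of which 16 were tested, with 12 differences above 0, 4 below and 0 called. Their median log2 difference was 0.08, against -0.07 over all tested miRNAs. The summed scaled signal of this list was 12.7 to 13.9 on ACLT arrays and 11.8 to 14.7 on sham arrays, while that of the striated muscle members was 0.117 to 16.1 on ACLT arrays and 1.43 to 6.34 on sham arrays. The 3 largest differences in the list were those of miR-125b-5p (-0.38, SE 0.13, limma adjusted p = 0.645), miR-22-3p (0.34, SE 0.21, limma adjusted p = 0.785) and miR-181a-5p (-0.32, SE 0.19, limma adjusted p = 0.760).

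Markers of other cells in the joint spanned narrower ranges than the striated muscle members. The summed scaled signal of the 4 mesenchymal and fibroblast miRNAs was 4.40 to 7.06 on ACLT arrays and 3.92 to 5.999 on sham arrays. Array by array it was 6.12, 7.06, 4.61 and 4.40 in ACLT tissue and 5.999, 5.66, 3.92 and 5.94 in sham tissue. On this scaling, the arrays with the largest striated muscle share, ACLT 3, ACLT 4 and sham 3, had the least of it. That order hangs on the scaling, whose percentile includes probes of the members. With those probes left out, sham 2 would lie below ACLT 3 and ACLT 4. The percentile used for scaling, over its value without striated muscle probes, was 1.11, 0.990, 1.16 and 1.27 on ACLT arrays 1 to 4, against 1.02, 0.839, 1.10 and 1.03 on sham arrays 1 to 4. Smooth muscle miRNAs, of which miR-145-3p was not detected on any array, summed to 0.626 to 0.716 on ACLT arrays and 0.714 to 1.07 on sham arrays. Of these 3 miRNAs, 1 was detected on all arrays. Their sums hang on the same scaling, and with the members' probes left out ACLT 1 and ACLT 4 would lie above sham 1. The median log2 difference was -0.53 over 3 tested erythroid miRNAs, -0.18 over 4 leukocyte, -0.0054 over 3 adipose and 0.25 over 3 cartilage miRNAs, with 0 called in each list. The part of tissue makeup in the striated muscle values was not tested.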

How the data were processed

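The deposited files are Agilent Feature Extraction output of 1-colour rat miRNA arrays (version 10.7.3.1, protocol miRNA_107_Sep09, per the file headers). The processed intensity of each spot had been background-subtracted by the software, per the file headers, and was not yet normalized between arrays. The labels' protocol names an mRNA labelling kit. Here, outlier spots (9.02% to 11.2% per array) were dropped, spots of a probe averaged, and each array scaled to the 75th percentile of 136 probes that were well above background on every array, of which 5 belong to striated muscle miRNAs. Values were floored at 0.0449 (log2 -4.48) and put on the log2 scale, with the brightest probe standing for a miRNA. limma 3.58.1 in R 4.3.3 tested 113 miRNAs, with Benjamini-Hochberg adjustment, and the code was tested on simulated data. The number of arrays limits the precision. Members, marker lists and tests were chosen with earlier results of these data known. Beside the members, the text names the 5 miRNAs most correlated with them, the 5 others of widest range and the 3 largest differences of the wider muscle list. Sequences and coordinates come from RefSeq (GRCr8), whereas the array grid cites rn4, and no file coordinates were used. Alternatives covered scaling, floor, background correction, filter, probe choice, slide row, replicate block and leaving out each array.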

Additional observations from a re-analysis of the deposited data

How the results depend on the processing

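Under 27 alternatives no tested member passed an adjusted p of 0.05 in limma (range 0.389 to 1), and miR-133a-5p stayed above 0 in all of them, at 0.21 to 1.76. With the main scaling and floor, its level on ACLT 2 was raised from -6.60 to -4.48, which raises its difference. Signs turned for the other 4 tested members. Within slide row 1 the log2 differences were -0.66 (miR-1-3p), -0.79 (miR-1b), -1.19 (miR-133b-3p) and -1.83 (miR-206-3p), with 8 miRNAs of the array called there, none of them a member, against 0 elsewhere. Leaving out 1 array gave -0.15 to 2.03 (miR-1-3p), -0.22 to 2.02 (miR-1b), -0.36 to 2.04 (miR-133b-3p) and -0.50 to 1.74 (miR-206-3p). Without ACLT 3 the differences were -0.16 (miR-1b), -0.31 (miR-133b-3p) and -0.42 (miR-206-3p). Without sham 4, miR-206-3p was at -0.07, and with scaling to the labelling spike-ins at -0.016. The cause of these turns was not tested. Over 5 other scalings the members' median difference was 0.19 to 0.76. Those scalings moved the median of all tested miRNAs, -0.07 here, to between -0.26 and 0.25. The members' ranges over arrays were 6.03-fold to 178-fold over the 13 alternatives computed for them (4 scalings, the mean of all probes and leaving out each array), with a level at the floor making a range a lower bound, and 13.0, 11.6, 11.8 and 12.5 without ACLT 2 for miR-1-3p, miR-1b, miR-133b-3p and miR-206-3p. The deviations of same-numbered arrays from their group means were mixed (r of -0.19, 0.59, 0.80 and -0.41). These 4 values cannot show whether the numbers pair samples. With the replicate block 0 miRNAs were called (4 at an unadjusted p of 0.05) and the lowest adjusted p of a member was 0.705. Levels of miR-133a-3p, miR-208b-3p and miR-499-5p are limited by signal over background.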
